A study of Mus musculus with 12 samples.

Results

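The genes of the unfolded protein response (UPR) and the chaperones of the endoplasmic reticulum (ER) were examined in mouse islets that overexpress miR-7 in β-cells. The set held 37 of the 37991 genes in the count table. Its members were chosen by symbol, and each was found by its Ensembl identifier in all 12 libraries. They were read in 4 groups. These were 17 chaperones and foldases, 9 genes of ER-associated degradation (ERAD), 6 genes of the PERK-ATF4 arm, and 5 sensors and transcription factors. Many of the chaperones and foldases are known to be induced by ATF6 and XBP1.

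Bulk RNA-seq was run on whole islets of Tg7 mice, whose transgene overexpresses miR-7 only in β-cells, and of wild-type (Wt) littermates. Islets were taken at 2 weeks (2w) and at 12 weeks (12w) of age from males of the C57BL/6 strain. The study describes Tg7 mice as normoglycaemic at 2w and hyperglycaemic at 12w. In Tg7 islets age and glycaemia therefore change together and cannot be told apart here. There were 3 libraries for each of the 4 groups, every one made from the pooled islets of at least 3 animals, so the p-values below measure the spread between pools. Mature miRNAs are too short for libraries of this kind, so miR-7 itself was not measured here. The 12w Wt libraries carry the replicate numbers 1, 2 and 4, and libraries are listed below in the order of these numbers.

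β-cells make large amounts of proinsulin in the ER, and the UPR adjusts the folding capacity of this organelle to that load. Of its 3 sensors, IRE1α (encoded by Ern1) splices the mRNA of the transcription factor XBP1, ATF6 is cut to release a transcription factor, and PERK (encoded by Eif2ak3) phosphorylates eIF2α and so favours translation of ATF4. XBP1 and ATF6 are known to induce chaperones and ERAD genes, whereas ATF4 induces genes of amino acid supply, redox balance and cell death, and it also answers to kinases outside the ER. Sensor activity is set by splicing, cleavage and phosphorylation, which counts per gene do not show.

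The factors of the arms are known to bind different control elements, and the matches to these elements are shown because the members were grouped by arm. RefSeq promoters (GRCm38.p6, 250 bases before to 50 bases after the start of a gene) were at hand for 33 of the 37 members, Hyou1, Manf, Derl1 and Atf6 having no match. Of the 34 promoters of these members, 25 had their first 30 transcribed bases within the longest mm9 transcript of the gene. The other promoters may belong to a different start site. Both strands were searched for the ER stress response element ERSE (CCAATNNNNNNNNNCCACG), bound by ATF6 together with NF-Y. ERSE was found in 8 of 15 chaperone promoters (53.3%), in 2 of 8 ERAD promoters, in none of the 6 PERK-ATF4 and 4 sensor promoters, and in 0.119% of 32851 promoters of all genes. The windows are written in the direction of each gene, 5′ to 3′, with the element in capitals.
Hspa5 (chr2:34772020-34772049, + strand): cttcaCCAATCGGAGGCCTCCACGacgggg
Hsp90b1 (chr10:86705632-86705661, − strand): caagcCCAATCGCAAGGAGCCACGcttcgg
Canx (chr11:50325794-50325823, − strand): attgaCCAATCACCACGCTCCACGaagaat
Pdia6 (chr12:17266486-17266515, + strand): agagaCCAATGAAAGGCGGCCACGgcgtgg
Dnajc3 (chr14:118937822-118937851, + strand): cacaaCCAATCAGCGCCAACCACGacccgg
Creld2 (chr15:88819515-88819544, + strand): cttctCGTGGCGAGCCTCAATTGGtccaca
Ero1lb (chr13:12565677-12565706, + strand): ggcctCGTGGTCCCGCCTCATTGGccgccg
Syvn1 (chr19:6046527-6046556, + strand): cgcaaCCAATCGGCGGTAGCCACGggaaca
Derl3 (chr10:75893237-75893266, + strand): tctacCGTGGGACTTCCCCATTGGctagcc
In Creld2, Ero1lb and Derl3 the element lay on the opposite strand to the gene. Calr held 1 element and Hsp90b1 a further one, and the other chaperone promoters held no ERSE.

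The related element ERSE-II (ATTGGNCCACG) was found in the promoters of Dnajb11 and Herpud1 and in 0.0365% of all promoters. The XBP1 element UPRE (TGACGTGG) was in no member promoter and in 0.676% of all promoters. The C/EBP-ATF response element CARE (TGATGNAA), which ATF4 binds with C/EBP partners, was found in 3 of the 6 PERK-ATF4 promoters and in that of Herpud1, against 3.97% of all promoters. Herpud1 alone among the members held both kinds of element, which are shown with those of the PERK-ATF4 genes for comparison.
Herpud1, ERSE-II (chr8:94386368-94386397, + strand): cgggcgctgATTGGGCCACGttggacactg
Herpud1, CARE (chr8:94386306-94386335, + strand): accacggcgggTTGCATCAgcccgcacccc
Chac1, CARE (chr2:119351038-119351067, + strand): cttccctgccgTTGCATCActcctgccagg
Trib3, CARE (chr2:152344028-152344057, − strand): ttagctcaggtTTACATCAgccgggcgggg
Asns, CARE (chr6:7693214-7693243, − strand): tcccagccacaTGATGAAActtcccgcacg
No match of 1 element overlapped a match of another in the member promoters. A match describes letters only, and binding was not measured.

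Libraries held between 11610697 and 17515758 counted reads, and all 37 members passed the filter on low counts that left 15961 genes for testing. Levels are given as CPM (counts scaled to a common library total) after TMM scaling, and differences as log2 fold changes ± standard error with adjusted p-values of edgeR's quasi-likelihood test, a gene being called at an adjusted p under 0.05. Insulin transcripts took 12.1% ± 2.91 of the reads in 2w Wt, 2.85% ± 1.15 in 2w Tg7, 24.0% ± 8.02 in 12w Wt and 8.14% ± 0.0862 in 12w Tg7 libraries (SD, n = 3). Of 11 β-cell markers 9 were called lower in Tg7 islets at each age (median log2 fold changes −2.32 and −2.88), with summed levels at 2w of 111125 to 180862 CPM for Wt against 27693 to 52784 CPM for Tg7 libraries, and at 12w of 199158 to 482665 CPM against 100470 to 105813 CPM. Stellate and fibroblast markers were called higher for 6 of 7 genes at 2w and 7 of 7 at 12w, and their summed level at 2w was 219.9 to 318.6 CPM for Wt against 408 to 550.4 CPM for Tg7 libraries, and at 12w 35.3 to 42.2 CPM against 262 to 298 CPM. Endothelial markers were called higher for 4 of 5 genes at 12w (299 to 387 CPM in Wt, 601 to 660 in Tg7). At 2w none of the 5 was called. Of the lists for α-cells (6 tested), δ-cells (3), duct cells (4), macrophages (6) and Schwann cells (4), 1, 0, 0, 1 and 0 genes were called higher at 2w with none lower, and at 12w 1, 0, 1, 0 and 2 higher with 1 macrophage gene lower. Among other cells rich in rough ER, the 11 acinar markers summed to 9.79 to 12.1 CPM in Wt and 21.6 to 28.4 CPM in Tg7 at 2w and to 14.99 to 21.5 CPM at 12w, with Amy2a5 at 0 throughout. The 7 B and plasma cell markers summed to 11.8 to 12.3 CPM in Wt and 18.4 to 42.0 CPM in Tg7 at 2w. At 12w they summed to 13.3 to 20.3 CPM. Of 8 tested acinar genes 1 was called higher at 2w and none at 12w. Of 4 tested B and plasma cell genes none was called at 2w and 1 was higher at 12w. None of either list was called lower. In bulk islets, fewer cells of a type and less RNA per cell cannot be told apart, and the part of these cell types in the results below was not tested.

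Chaperones and foldases were downregulated in 2w Tg7 islets almost as a whole. Of 17 genes 16 were called lower and none higher, where 4.55% of all tested genes were called lower and 6.07% higher. Their median log2 fold change was −1.10, against 0.03 over all tested genes, and 12 of them were at least 2-fold lower. Summed over the 17 genes, the level was 12271 ± 1249 CPM in Wt and 6008 ± 798 CPM in Tg7 libraries (SD, n = 3), or 49.0% of Wt.

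Hspa5 (ENSMUSG00000026864, mm9 chr2:34627490-34632051, + strand) encodes BiP, the main Hsp70 chaperone of the ER lumen and the protein that holds the sensors inactive. At 2w it stood at 1912, 2441 and 2088 CPM in Wt libraries 1, 2 and 3 and at 1269.7, 931 and 799.6 CPM in the Tg7 libraries (−1.10 ± 0.22, adjusted p = 0.00684). All Tg7 libraries lay below all Wt libraries. Hsp90b1, which encodes the ER member of the Hsp90 family, stood at 1603, 2004 and 2277 CPM in Wt and 1069, 962 and 872 CPM in Tg7 (−1.02 ± 0.20, adjusted p = 0.00571). Its groups did not overlap either, and it had the second highest length-scaled level of the set in 2w Wt islets (486 ± 84.1 CPM per kb, after 611 ± 76.6 for Hspa5), although the SDs of these levels overlapped.

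The deepest decreases at 2w belonged to Ero1lb, Sdf2l1 and Creld2. Ero1lb (ENSMUSG00000057069, mm9 chr13:12658150-12701793, + strand) encodes the ER oxidase that is enriched in pancreatic cells and recharges protein disulfide isomerases. Its level was 1035, 977 and 867 CPM in Wt and 209, 173 and 159.8 CPM in Tg7 (−2.41 ± 0.18, adjusted p = 5.63e-06). Sdf2l1, a partner of the cochaperone ERdj3, stood at 117, 167 and 135 CPM in Wt and 45.8, 36.7 and 22.3 CPM in Tg7 (−2.00 ± 0.27, adjusted p = 0.000435). Creld2, an ER protein induced by misfolded cargo, stood at 153, 233 and 212 CPM in Wt and 63.8, 61.5 and 54.6 CPM in Tg7 (−1.73 ± 0.16, adjusted p = 2.73e-05). For each of these genes the highest Tg7 library was below the lowest Wt library, and the Tg7 mean of Ero1lb was 18.8% of the Wt mean.

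The other members of the group followed by class. The J-domain cochaperones Dnajb9, Dnajb11 and Dnajc3 changed by −1.28, −1.06 and −0.81 on the log2 scale, all called lower. Dnajb9, which returns IRE1α to its BiP-bound form, stood at 215, 216 and 213 CPM in Wt and 92.5, 84.4 and 87.8 CPM in Tg7 (−1.28 ± 0.17, adjusted p = 0.00045), and its groups lay apart. Hyou1, the nucleotide exchange factor of BiP, changed by −1.49, and Manf, an ER-resident trophic factor, by −1.30, both called lower. The lectin chaperones Calr and Canx, which bind glycoproteins, changed by −1.07 and −0.57 and were called lower. Among the protein disulfide isomerases, Pdia4 (−1.25), Pdia6 (−1.13) and Pdia3 (−0.55) were called lower, whereas P4hb was not called (−0.32 ± 0.13, adjusted p = 0.141). Ero1l, the widely expressed ER oxidase, stood at 148, 109 and 101 CPM in Wt and 67.9, 61.6 and 63.4 CPM in Tg7 (−0.90 ± 0.20, adjusted p = 0.0104). All 17 genes, P4hb included, had every Tg7 library below every Wt library, an order held by 18.1% of all tested genes (the reverse order by 17.8%), and Tg7 replicate 1 was the highest 2w Tg7 library for all 17.

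**Figure D1:**
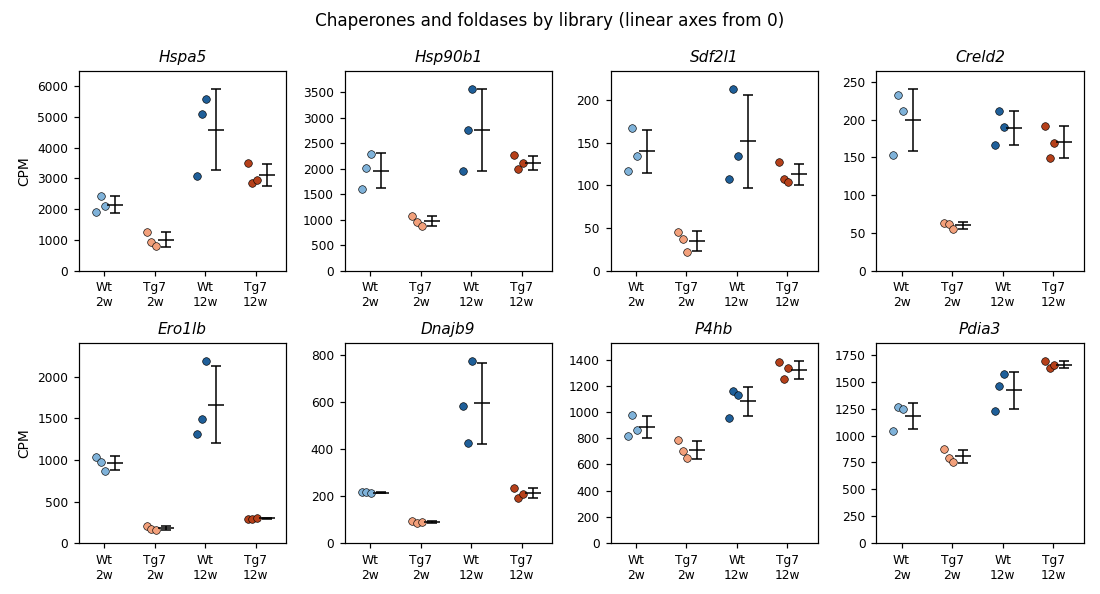
Levels of 8 chaperones and foldases in CPM (linear vertical axes from 0) by group, each point a library and the black mark the mean with its SD (n = 3). At 2w the Tg7 points lie below the Wt points in every panel, whereas at 12w they lie below only for Ero1lb and Dnajb9 and above for P4hb and Pdia3.

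With single libraries left out, 13 of the 16 calls at 2w held throughout. Canx was lost without Wt replicate 1, 2 or 3 or Tg7 replicate 2 or 3 of 2w (adjusted p up to 0.063), Pdia3 without Wt replicate 2 or 3 or Tg7 replicate 2 or 3 (up to 0.0893), and Ero1l without Wt replicate 1 (0.0587). Part of the reads of 4 genes could come from near-identical copies elsewhere in mm9, which covered 84% of the Ero1lb transcript at 97.8% identity (chr13:13415637-13445329), 55.4% of Ero1l at 99.7% (chr7:112400398-112402774), 53.4% of Dnajb9 at 97.2% (chrX:153978617-153979685) and 14.1% of Manf at 99.1% (chr8:55860991-55861306).

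At 12w fewer of them were called. Of the 17 genes 6 were called lower, namely Ero1lb, Dnajb9, Ero1l, Dnajb11, Calr and Manf, and none was called higher, where 11.2% of all tested genes were called lower and 12.5% higher. The median of the 17 genes was −0.43 (−0.01 over all tested genes), and the summed level was 18103 ± 3473 CPM in Wt and 13206 ± 1002 CPM in Tg7 libraries, or 72.9% of Wt. Without TMM scaling the 17 genes took 0.985%, 1.48% and 1.86% of the counts in 12w Wt libraries 1, 2 and 4. In 12w Tg7 libraries 1, 2 and 3 the share was 1.49%, 1.35% and 1.39%, inside the Wt range. The lower summed level at 12w thus rested on the scaling.

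Ero1lb again had the deepest decrease, at 1317, 1493 and 2189 CPM in Wt libraries 1, 2 and 4 and 293, 289 and 307 CPM in Tg7 (−2.49 ± 0.18, adjusted p = 9.53e-07). Dnajb9 stood at 582, 427 and 775 CPM in Wt and 234, 193 and 209.6 CPM in Tg7 (−1.49 ± 0.17, adjusted p = 4.52e-05). Ero1l stood at 165, 103 and 184 CPM in Wt and 80.7, 64.3 and 67.6 CPM in Tg7 (−1.09 ± 0.20, adjusted p = 0.00137). In these 3 genes the Tg7 libraries lay below all Wt libraries (16.3% of all tested genes), and the decreases at 12w differed from those at 2w by less than the standard error of that difference. Dnajb11 (−0.60 ± 0.12, adjusted p = 0.00297), Manf (−0.56 ± 0.13, adjusted p = 0.00778) and Calr (−0.57 ± 0.16, adjusted p = 0.0175) were called with smaller values, and the call of Calr was lost without Wt replicate 2 or Tg7 replicate 2 or 3 of 12w (adjusted p up to 0.0814).

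The principal chaperones were not called at 12w. Hspa5 stood at 3088, 5076 and 5581 CPM in Wt and 3509.9, 2862 and 2935 CPM in Tg7 (−0.56 ± 0.22, adjusted p = 0.0844), so that Wt replicate 1 lay inside the Tg7 range. Hsp90b1 stood at 1945, 2761 and 3556 CPM in Wt and 2257, 1983 and 2104 CPM in Tg7 (−0.38 ± 0.20, adjusted p = 0.192), with Wt replicate 1 below all Tg7 libraries and the other Wt libraries above them. Without that library Hspa5, Hsp90b1 and Hyou1 were called lower (adjusted p = 0.01, 0.0226 and 0.0175). Creld2 stood at 166, 211 and 190.5 CPM in Wt and 192, 149 and 168 CPM in Tg7 (−0.16 ± 0.16, adjusted p = 0.536), and Sdf2l1 at 108, 213 and 134 CPM and 127, 107 and 104 CPM (−0.43 ± 0.26, adjusted p = 0.261), with overlapping groups. P4hb (0.29 ± 0.13, adjusted p = 0.136) and Pdia3 (0.22 ± 0.13, adjusted p = 0.265) had every Tg7 library above every Wt library, as in 20.7% of all tested genes, which is the reverse of their order at 2w, without a call with TMM factors. P4hb was called higher with upper-quartile factors, and both genes with library size alone.

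The direction of the small 12w differences rested on the scaling. With library size alone in place of TMM factors, the median of all genes moved up by 0.44 at 12w and by 0.17 at 2w, and at 12w Hsp90b1, Canx, Pdia4, Pdia6, Creld2, Herpud1, Syvn1 and Ppp1r15a turned to values between 0.027 and 0.32, all under that shift. Of all 37 members 24 were called lower at 2w and 16 at 12w with TMM, whereas under library size 15 were called lower at 2w, and at 12w 4 lower (Ero1lb, Dnajb9, Ero1l and Atf6) and 3 higher (Pdia3, P4hb and Edem2). The 9 calls lost in this way at 2w were those of Canx, Pdia3, Dnajc3, Edem2, Syvn1, Sel1l, Derl2, Xbp1 and Atf6b. Over all genes 1987 were called at 2w and 5558 at 12w with library size alone, 84.0% and 93.5% of them higher. With the replicate number as a block the 12w calls of Calr, Edem1, Derl1, Derl2, Ddit3, Ern1, Atf6b and Eif2ak3 were lost, and at 2w those of Syvn1 and Derl2. At 12w only numbers 1 and 2 occurred in both genotypes. Wt replicate 4 was the only library of its number, so the block left it no part in the comparison. The TMM factors ran from 0.684 to 0.871 in 12w Wt and from 1.04 to 1.09 in 12w Tg7 libraries, and how much of this offset belongs to the insulin reads was not tested. The count of 16 at 12w was 9 without Tg7 replicate 2 of 12w and 9 without Tg7 replicate 3. Over all genes 2417 and 2418 were called at 12w in these fits, against 3772 with all libraries.

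**Figure D2:**
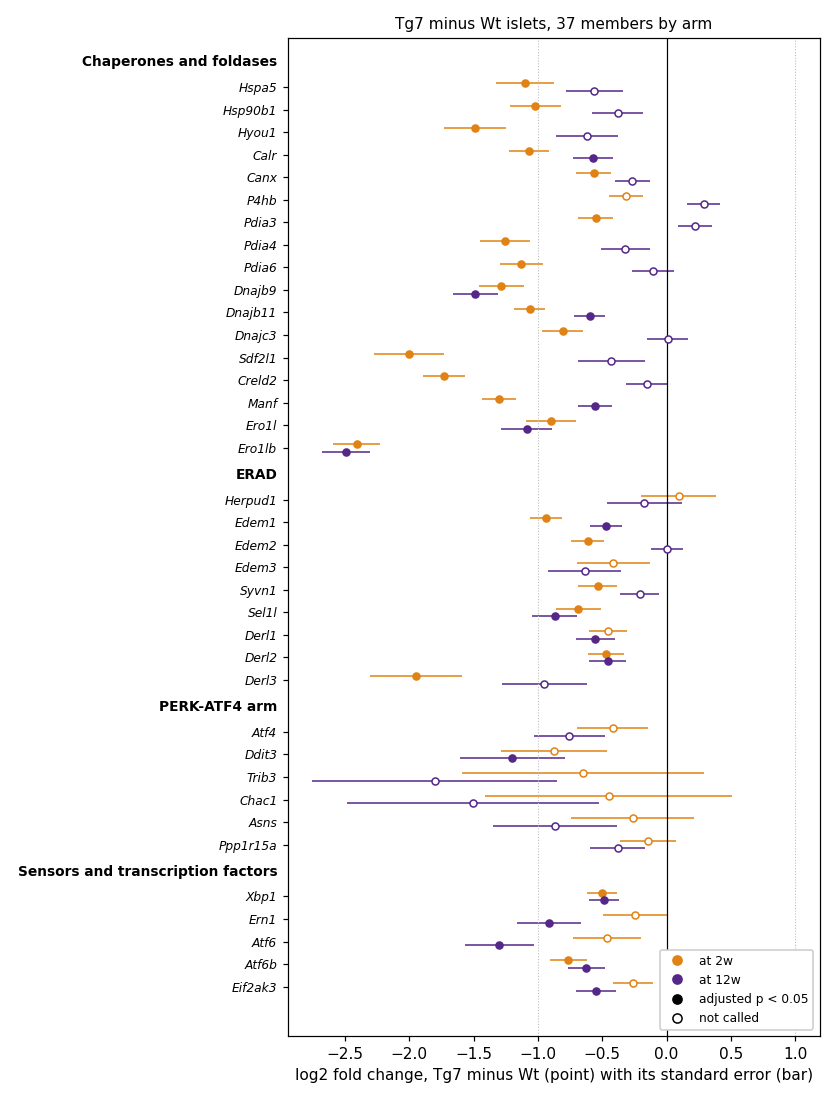
Log2 fold change of Tg7 minus Wt islets (horizontal axis, log2 units) for the 37 members by arm, at 2w and at 12w, with bars for the standard error and filled points for an adjusted p under 0.05. Of the 17 chaperones 12 lie below −1 at 2w and 3 at 12w, whereas Ern1, Atf6 and Eif2ak3 lie lower at 12w, and Trib3 and Chac1 have the longest bars.

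ERAD genes were called lower for 6 of 9 members at 2w (median −0.54, where 4.55% of all tested genes were called lower) and for 4 of 9 at 12w (median −0.47, against 11.2%), with none called higher. Their summed level was 1050 ± 53.8 CPM in Wt and 756 ± 20.9 CPM in Tg7 at 2w, and 1686 ± 355 CPM and 1241 ± 44.5 CPM at 12w. Without TMM scaling their share of the counts at 12w was 0.0995% to 0.182% in Wt and 0.130% to 0.134% in Tg7 libraries.

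Derl3, the Derlin that is prominent in secretory cells, had the deepest decrease at 2w, with 14.7, 27.0 and 31.0 CPM in Wt and 7.95, 8.31 and 2.68 CPM in Tg7 (−1.95 ± 0.36, adjusted p = 0.00358). At 12w it stood at 72.2, 69.1 and 69.6 CPM in Wt and 47.9, 33.6 and 27.6 CPM in Tg7, without overlap but just outside the threshold (−0.95 ± 0.33, adjusted p = 0.0523). Edem1, which passes mannose-trimmed glycoproteins on to disposal, stood at 104, 106 and 101 CPM in Wt and 60.99, 55.0 and 46.4 CPM in Tg7 at 2w (−0.94 ± 0.12, adjusted p = 0.000371). At 12w its values were 142, 172 and 170.4 CPM and 121, 112 and 117 CPM (−0.47 ± 0.12, adjusted p = 0.013). Both genes were lower in every Tg7 library at both ages.

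Sel1l is the adaptor of the ubiquitin ligase HRD1. It stood at 192, 206 and 188 CPM in Wt and 127, 125 and 112 CPM in Tg7 at 2w (−0.69 ± 0.17, adjusted p = 0.0238) and at 291, 273 and 468 CPM and 205, 170.4 and 191 CPM at 12w (−0.87 ± 0.17, adjusted p = 0.00282). Wt replicate 4 was by far the highest 12w library, and without it the difference was −0.58, adjusted p = 0.00155. Syvn1, which encodes HRD1 itself, was called at 2w (−0.54 ± 0.15, adjusted p = 0.0369) and not at 12w (−0.21 ± 0.15, adjusted p = 0.353). Derl1, a Derlin of the exit channel, stood at 163, 139 and 135 CPM in Wt and 108, 112 and 99.1 CPM in Tg7 at 2w (−0.46 ± 0.15, adjusted p = 0.0637), and at 208, 205 and 302 CPM and 172, 156 and 160.4 CPM at 12w (−0.55 ± 0.15, adjusted p = 0.0156). Derl2 was called at both ages (−0.47 and −0.46), and a copy inside Nbas covered 67.2% of the Derl1 transcript at 96.6% identity (chr12:13441902-13444016).

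The mannosidase-like genes differed among themselves. Edem2 was called at 2w (−0.61 ± 0.13, adjusted p = 0.00705) but stood level at 12w (0.00 ± 0.12, adjusted p = 0.989), and Edem3 was called at neither age (−0.42 and −0.64). Herpud1, a scaffold of the HRD1 complex and the member with both an ERSE-II and a CARE element, stood at 236, 142 and 114 CPM in Wt and 122, 193 and 209 CPM in Tg7 at 2w (0.09 ± 0.29, adjusted p = 0.872). At 12w it stood at 211, 228 and 422 CPM and 245, 249 and 269 CPM (−0.17 ± 0.29, adjusted p = 0.722). Herpud1 and Edem3 were the ERAD members whose groups overlapped at both ages.

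With single libraries left out, the ERAD calls of Edem1, Edem2 and Derl3 at 2w and of Sel1l at 12w held throughout. Sel1l at 2w was lost without Wt replicate 1, 2 or 3 or Tg7 replicate 2 or 3 of 2w (adjusted p up to 0.0773), and Syvn1 and Derl2 at 2w without Wt replicate 2 or 3 or Tg7 replicate 2 or 3 of 2w or any 12w Tg7 library (up to 0.142 and 0.188). At 12w Edem1 and Derl1 were lost without Tg7 replicate 2 or 3 (up to 0.0627 and 0.0684) and Derl2 without Wt replicate 1 or 4 or any 12w Tg7 library (up to 0.115). Derl1 at 2w, in turn, was called without Wt replicate 1 or 4 of 12w (adjusted p = 0.00544 without replicate 4), and Edem3 at 2w without Wt replicate 4 of 12w (0.0386).

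The sensors and transcription factors were called lower for 2 of 5 genes at 2w and for all 5 at 12w (medians −0.46 and −0.62), where 4.55% and 11.2% of all tested genes were called lower. None of the 5 was called for the difference between the ages. Their summed level was 847 ± 37.6 CPM in Wt and 633 ± 18.05 CPM in Tg7 at 2w, and 1234 ± 271 CPM and 747 ± 25.5 CPM at 12w. Without TMM scaling their share of the counts at 12w was 0.0721% to 0.135% in Wt and 0.0782% to 0.0806% in Tg7 libraries.

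Xbp1, whose mRNA is the target of IRE1α, stood at 364, 333 and 303 CPM in Wt and 248, 244 and 214 CPM in Tg7 at 2w (−0.50 ± 0.12, adjusted p = 0.0143). Its 12w levels were 563, 548 and 505 CPM in Wt and 407, 378 and 368 CPM in Tg7 (−0.49 ± 0.12, adjusted p = 0.0081). The groups lay apart at both ages, and the counts did not separate spliced from unspliced Xbp1. Atf6b, the paralogue of ATF6, stood at 79.9, 97.3 and 78.2 CPM in Wt and 48.9, 50.6 and 50.7 CPM in Tg7 at 2w (−0.76 ± 0.14, adjusted p = 0.00405), and at 48.1, 72.2 and 66.9 CPM and 41.6, 41.2 and 39.1 CPM at 12w (−0.62 ± 0.14, adjusted p = 0.00689). It too was lower in every Tg7 library at both ages.

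Atf6 stood at 105, 121 and 108 CPM in Wt and 95.7, 64.6 and 82.7 CPM in Tg7 at 2w (−0.46 ± 0.27, adjusted p = 0.286). At 12w its values were 155, 159.8 and 369.8 CPM in Wt and 93.3, 93.0 and 92.3 CPM in Tg7 (−1.30 ± 0.27, adjusted p = 0.0033). The groups lay apart at both ages. Wt replicate 4 stood far above the other 12w Wt libraries, and without it the 12w difference was −0.76, adjusted p = 0.00116, still called. Ern1 stood at 267, 193 and 251 CPM in Wt and 179, 212 and 209 CPM in Tg7 at 2w (−0.25 ± 0.25, adjusted p = 0.574). At 12w it stood at 209, 232 and 487 CPM and 165, 165 and 164 CPM (−0.91 ± 0.25, adjusted p = 0.0174). Again Wt replicate 4 was the high library, and the value without it was −0.42, adjusted p = 0.0354.

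Eif2ak3, which encodes PERK, stood at 73.3, 89.2 and 78.4 CPM in Wt and 80.6, 61.1 and 59.2 CPM in Tg7 at 2w, with overlapping groups (−0.26 ± 0.16, adjusted p = 0.31). At 12w it stood at 80.5, 89.1 and 117 CPM and 69.8, 62.7 and 64.0 CPM without overlap (−0.55 ± 0.16, adjusted p = 0.0224), and without Wt replicate 4 the value was −0.37, adjusted p = 0.0683. The call of Eif2ak3 was also lost without Tg7 replicate 2 or 3 of 12w (up to 0.0864), that of Ern1 without any 1 of the 12w Tg7 libraries (up to 0.0611), and that of Xbp1 at 2w without Wt replicate 1 or Tg7 replicate 3 (up to 0.0678). Atf6 at 2w was called without Wt replicate 4 of 12w (adjusted p = 0.0194).

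**Figure D3:**
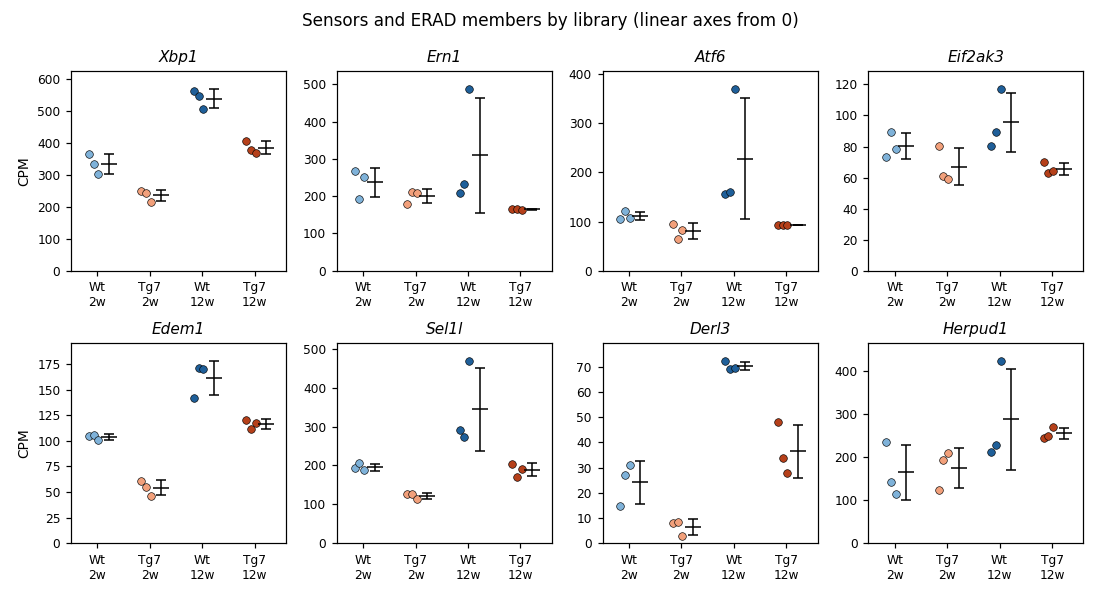
Levels of 4 sensors or transcription factors and 4 ERAD genes in CPM (linear vertical axes from 0) by group, each point a library and the black mark the mean with its SD (n = 3). One 12w Wt library, replicate 4, stands above the other 12w Wt libraries in Ern1, Atf6, Sel1l and Herpud1, whereas Xbp1 and Edem1 show narrow groups that do not overlap within an age.

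The PERK-ATF4 arm gave no call at 2w, and at 12w 1 of 6 genes (16.7%), Ddit3, was called lower, where 11.2% of all tested genes were. With TMM factors and all libraries, estimates were below 0 for all 6 genes at both ages (medians −0.43 and −1.03). Those of Ppp1r15a turned to 0.027 at both ages with library size alone, and those of Atf4, Trib3, Chac1 and Asns turned above 0 at 2w when Wt replicate 1 of 2w was left out, as did those of Trib3 and Chac1 with the replicate block and those of Chac1 and Asns without Tg7 replicate 1 of 2w (0.048 and 0.11). The libraries of a group differed widely from each other. The highest library of 2w Wt exceeded the lowest by a median of 3.63-fold over the 6 genes and by up to 22.0-fold, where the median over all tested genes was 1.25-fold. In 12w Tg7 libraries the median ratio was 1.21, and that of all tested genes 1.199.

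Trib3, a pseudokinase gene induced by ATF4 and CHOP, stood at 61.9, 5.82 and 5.37 CPM in 2w Wt libraries 1, 2 and 3 and at 3.84, 25.3 and 17.7 CPM in 2w Tg7. In 12w islets its values were 7.81, 25.5 and 107 CPM in Wt libraries 1, 2 and 4 and 16.1, 10.402 and 14.3 CPM in Tg7. High and low libraries occurred in both genotypes, and neither age gave a call (−0.65 ± 0.94, adjusted p = 0.707 at 2w and −1.80 ± 0.95, adjusted p = 0.198 at 12w). Chac1, which encodes a glutathione-degrading enzyme, stood at 89.3, 4.05 and 5.69 CPM in 2w Wt and 4.48, 33.6 and 34.8 CPM in 2w Tg7. At 12w the values were 16.0, 37.7 and 107 CPM in Wt and 21.3, 16.5 and 19.6 CPM in Tg7. Wt replicate 1 of 2w and Wt replicate 4 of 12w again stood far above the rest of their groups.

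Atf4 itself stood at 495, 235 and 238 CPM in 2w Wt and 165, 281 and 279 CPM in 2w Tg7 (−0.42 ± 0.28, adjusted p = 0.362). In 12w islets it was measured at 294, 441 and 446 CPM in Wt and 245, 226 and 229 CPM in Tg7, without overlap or call (−0.76 ± 0.28, adjusted p = 0.0644). Ddit3, which encodes CHOP, stood at 67.7, 19.3 and 27.4 CPM in 2w Wt and 11.9, 30.2 and 20.6 CPM in 2w Tg7 (−0.87 ± 0.41, adjusted p = 0.191). At 12w Wt replicate 2 was its highest library (48.8, 99.1 and 67.3 CPM, against 35.6, 30.3 and 28.1 CPM in Tg7), and the difference was just inside the threshold (−1.198 ± 0.41, adjusted p = 0.0482). That call was lost with DESeq2, library size alone, upper-quartile factors, the replicate block or the test against a 1.2-fold change, and without Wt replicate 2 or 4 of 12w, any 12w Tg7 library, or replicate 3 of either 2w group (adjusted p up to 0.241 over all of these). Asns, asparagine synthetase, changed by −0.26 and −0.86, and Ppp1r15a, the regulatory subunit that lets eIF2α phosphorylation be reversed, by −0.15 and −0.38, all without a call.

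The order of the libraries was shared across the arm. Wt replicate 1 was the highest of the 2w Wt libraries for 6 of 6 genes, Tg7 replicate 1 the lowest of the 2w Tg7 libraries for 6 of 6, and Wt replicate 4 the highest of the 12w Wt libraries for 5 of 6. In a separate list of 40 other targets of ATF4 or CHOP the same libraries held these places for 39, 37 and 36 genes, where the shares over all tested genes were 36.7%, 33.6% and 39.1%. Without Wt replicate 1 of 2w the median of the 6 genes at 2w turned from −0.43 to 0.32 (Trib3 1.47, adjusted p = 0.366, Chac1 2.30, adjusted p = 0.134), and without Wt replicate 4 of 12w the median at 12w was −0.50. With both of these libraries left out, a choice made after seeing the data, Chac1 was called higher at 2w (2.30, adjusted p = 0.0459) and 27 members lower. Over all genes 1912 were then called at 2w, 49.8% of them higher, against 1695 with all libraries. Insulin transcripts took 15.4% of the reads of Wt replicate 1 of 2w, against 10.7% and 10.1% in the other 2w Wt libraries, and 14.8% in Wt replicate 4 of 12w, against 29.99% and 27.0%. The part of these shares in the result was not tested, and the labels give no other difference between the libraries.

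**Figure D4:**
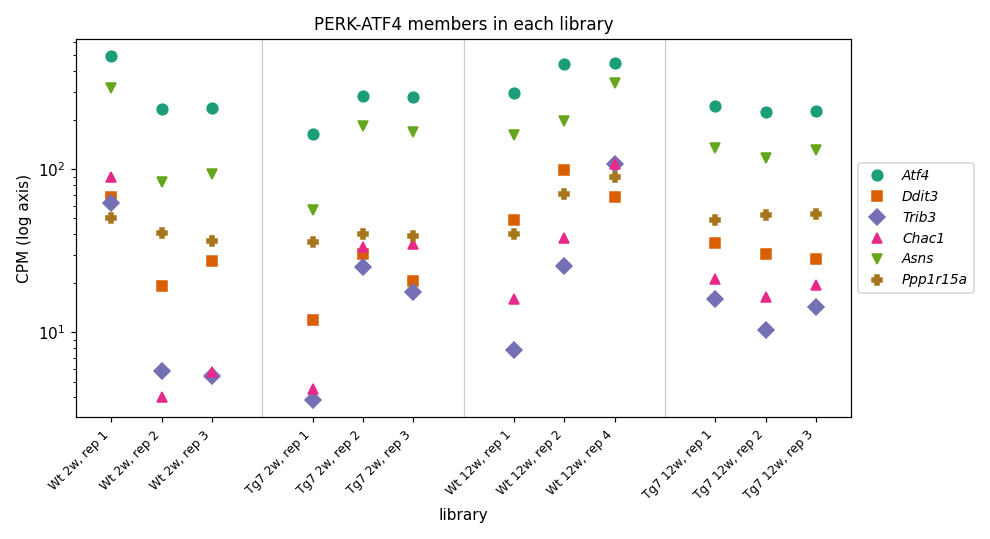
CPM (log vertical axis) of the 6 PERK-ATF4 members in each of the 12 libraries, with grey lines between groups. In Wt 2w replicate 1 the symbols stand above those of the other 2w Wt libraries, in Tg7 2w replicate 1 they stand below the other 2w Tg7 libraries, and the 12w Tg7 libraries lie close together.

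Other genes of the same pathways moved less uniformly. Of 28 other ER folding genes 7 were called lower and 1 higher at 2w (median −0.14), and 4 lower and 10 higher at 12w (median 0.00). These are 28.6% and 50% of the list, where 10.6% of all tested genes were called at 2w and 23.6% at 12w. Serp1, which protects nascent proteins at the translocon, was the lowest at both ages (−1.08 and −0.99), followed by the cargo receptor gene Lman1 at 2w (−0.95) and the prolyl isomerase gene Ppib at 12w (−0.82). Clgn, a relative of calnexin best known from testis, was called higher at both ages (2.76 ± 0.48, adjusted p = 0.0025 and 4.11 ± 0.50, adjusted p = 6.26e-05) from levels below 1 CPM in every Wt library. Fkbp11, another prolyl isomerase gene, was the next highest at 12w (1.23).

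Of 21 other ERAD genes 3 were called lower at 2w, and at 12w 3 were lower and 2 higher. The share called, 14.3% at 2w and 23.8% at 12w, was near that of all tested genes (10.6% and 23.6%). The lowest at 2w were Selk (−0.50) and Rnf185 (−0.49), and at 12w Rnf185 (−0.68) and Nploc4 (−0.66). The ER lectin genes Erlec1 (0.63) and Os9 (0.38) were the higher ones at 12w. Of 13 other stress sensors and factors 3 (23.1%) were called lower at each age, led by Wfs1, the Wolfram syndrome gene of the ER membrane (−1.31 and −1.19), and Creb3l1, an ATF6-like factor (−0.96 and −1.45).

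Of 40 other ATF4 and CHOP targets 1 was called lower and 1 higher at 2w, and 9 lower and 1 higher at 12w (median −0.71). These are 5% and 25% of the list, below the share of all tested genes at 2w (10.6%) and near it at 12w (23.6%). The tRNA synthetase genes Wars (−0.99 at 2w) and Gars (−1.23 at 12w) were among the lower ones, and Stc2, stanniocalcin 2, was called higher at both ages (2.87 and 1.70). Its levels were low throughout, at 0.21 to 0.83 CPM in Wt and 1.75 to 5.66 CPM in Tg7 libraries. Nupr1, a stress-responsive chromatin gene, stood at 7.36, 1.18 and 1.44 CPM in 2w Wt, 4.96, 7.47 and 6.36 CPM in 2w Tg7, 22.1, 42.3 and 46.2 CPM in 12w Wt and 4.004, 3.32 and 4.75 CPM in 12w Tg7. Its 12w groups lay far apart (−3.20 ± 0.52, adjusted p = 0.000567).

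The change of the Tg7 effect between the ages was tested as the difference of both contrasts. Of the 37 members 1, Creld2, was called (1.57 ± 0.23, adjusted p = 0.00363), where 0.307% of all tested genes were called lower and 0.871% higher. Estimates were positive, that is, the decrease was smaller at 12w, for 14 of 17 chaperones (median 0.64) and negative for 6 of 6 PERK-ATF4 genes (median −0.47). Over all tested genes 52.4% of the estimates were negative, with a median of −0.03. None of the 6 PERK-ATF4 genes was called. Their values leaned on single libraries that act on the difference in opposite directions. Wt replicate 4 was the highest 12w Wt library for 5 of 6, and a high 12w Wt library lowers the difference. Wt replicate 1 was the highest 2w Wt library for 6 of 6, and a high 2w Wt library raises it. Pdia6 (1.02 ± 0.23, adjusted p = 0.0518), Sdf2l1 (1.57 ± 0.37, adjusted p = 0.061), Pdia3 (0.77 ± 0.19, adjusted p = 0.0746) and Manf (0.75 ± 0.19, adjusted p = 0.0749) came next after Creld2. The count of 1 depended on the fit, since DESeq2 called 9 members (Creld2, Dnajc3, Edem2, Manf, P4hb, Pdia3, Pdia4, Pdia6 and Sdf2l1). Over all genes DESeq2 called 566 of 15844 for the difference, against 188 of 15961 in the main fit. The count of members was 7 without Wt replicate 4 of 12w and 3 without Tg7 replicate 1 of 2w or without Wt replicate 2 of 12w, Creld2 being among them each time. Over all genes 579, 181 and 270 were called without these libraries, in that order. Ero1lb (−0.08 ± 0.25, adjusted p = 0.922), Dnajb9 (−0.20 ± 0.24, adjusted p = 0.772) and Ero1l (−0.19 ± 0.28, adjusted p = 0.813) had estimates within 1 standard error of 0, which does not show that their decreases were equal at both ages.

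Members called with age were higher at 12w in both genotypes. In Wt islets 12 members were called higher at 12w than at 2w and none lower, where 7.9% of all tested genes were called higher and 7.91% lower. These were 5 chaperones (Hspa5 1.09, Dnajb9 1.47, Ero1lb 0.80, Manf 0.66 and Dnajc3 0.52), 5 ERAD genes (Derl3 1.54, Edem2 0.99, Sel1l 0.82, Derl1 0.71 and Edem1 0.64), Atf6 (1.03) and Xbp1 (0.69). The call of Dnajc3 was lost without any 1 of 9 libraries (Wt replicates 1, 2 and 3 and Tg7 replicates 2 and 3 of 2w, Wt replicate 4 and Tg7 replicates 1, 2 and 3 of 12w) and that of Atf6 without Wt replicate 1, 2 or 3 of 2w. Scaled by library size alone, 3 were called higher and 1 lower, with the median of all genes moved by −0.39. Over all genes 4120 were then called, 7.89% of them higher, against 2524 with TMM.

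In Tg7 islets 22 members were called higher at 12w and none lower, where 7.02% of all tested genes were called higher and 6.01% lower. They included 16 of 17 chaperones, led by Sdf2l1 (1.69), Hspa5 (1.63) and Creld2 (1.501), 5 of 9 ERAD genes, led by Derl3 (2.54) and Edem2 (1.61), and Xbp1 (0.71). The chaperone that was not called was Ero1l (0.14 ± 0.20, adjusted p = 0.682). Calls that were lost without some single library were those of Hyou1, Canx, Pdia4, Ero1lb, Sel1l and Derl1, with adjusted p-values of up to 0.0752, 0.117, 0.0911, 0.102, 0.153 and 0.11 over all settings. None of the 6 PERK-ATF4 genes was called in either genotype, and Ern1 (−0.28), Atf6 (0.20) and Eif2ak3 (−0.03) were not called in Tg7 islets. The comparisons share groups with those of genotype, so their values stand side by side and are not independent. In summed level, the chaperones of 12w Tg7 libraries (12396 to 14326 CPM) overlapped the range of 2w Wt libraries (10905 to 13354 CPM), whereas those of 2w Tg7 libraries stood at 5314 to 6881 CPM.

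**Figure D5:**
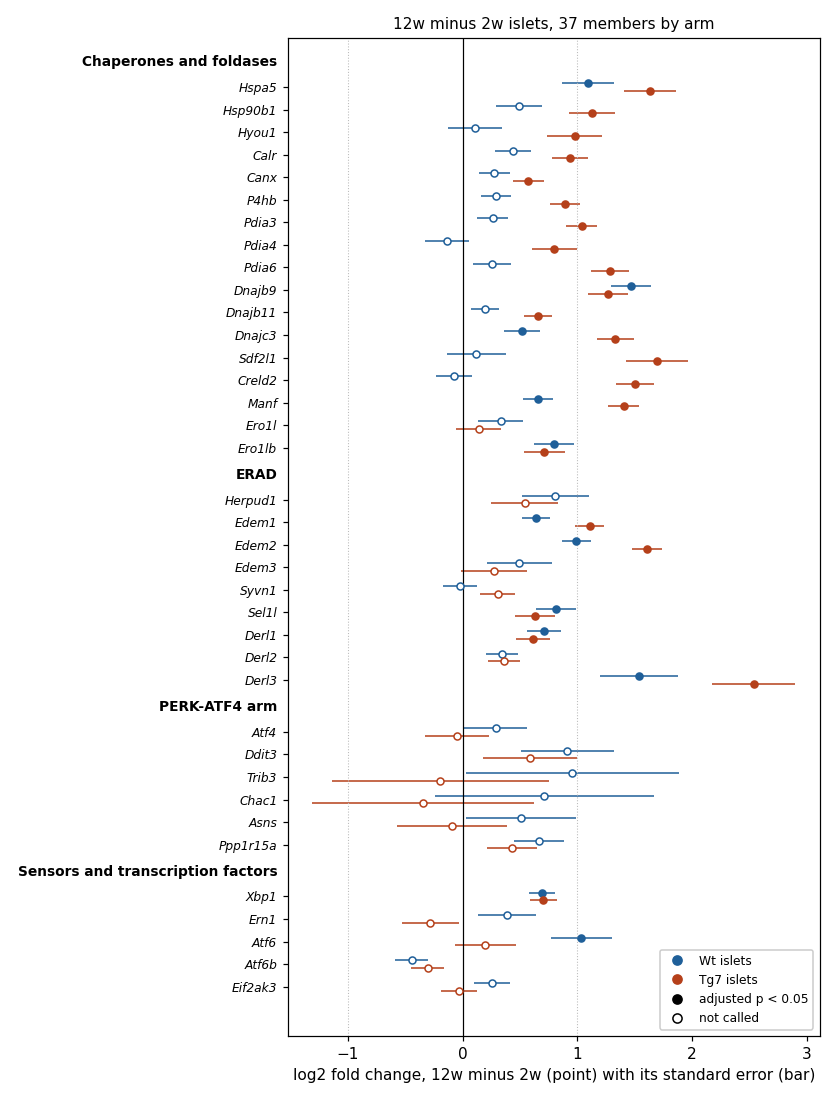
Log2 fold change of 12w minus 2w islets (horizontal axis, log2 units) for the 37 members by arm, in Wt and in Tg7 islets, with bars for the standard error and filled points for an adjusted p under 0.05. Called points lie to the right of 0 in both genotypes, with 16 of 17 chaperones filled for Tg7 and 5 for Wt.

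The miRNA that the transgene overexpresses is shown with its seed (bases 2 to 8) in capitals, since a match to it in a 3′ UTR is the site a miRNA can bind. Its mature form is made from loci at chr7:78888295-78888317 (+ strand) and chr13:58392841-58392863 (− strand) of GRCm38.p6.
miR-7a-5p: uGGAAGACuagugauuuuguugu
The complement GTCTTCC was found in the annotated mm9 3′ UTRs of 5 of the 37 members (13.5%), namely Calr, Dnajc3, Ero1lb, Edem1 and Syvn1, against 11.2% of 20007 protein-coding genes. Median UTR lengths were 957 bp and 891 bp. Ero1lb, the member with the deepest decrease at both ages, and Edem1 held a pair of matches each, which are shown with 11 bases on each side.
Ero1lb, UTR position 1280: ctgaatgcctaGTCTTCCactacagaggt
Ero1lb, UTR position 2385: caactgtgctgGTCTTCCtcagcactgct
Edem1, UTR position 1340: acatatcttatGTCTTCCctctacactgt
Edem1, UTR position 2965: gtctctatcctGTCTTCCcttctctctca
Calr, Dnajc3 and Syvn1 held 1 match each. The share among members lay close to that of all genes, and whether these matches bind miR-7 was not measured.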

How the data were processed

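Bulk RNA-seq was made from islets isolated with Liberase and a Histopaque gradient, with libraries from the NEB Ultra II kit read as paired ends on a HiSeq2500. The authors deposited raw counts per Ensembl gene, which per the labels and the study's methods came from reads trimmed with Trimmomatic, aligned to NCBIM37/mm9 by TopHat2 2.0.11 and counted by featureCounts. The submitters' processing notes name bcl2fastq 2.20.0. The annotation release, the strand setting and the handling of multi-mapping reads were stated nowhere in the sources at hand, so reads of near-identical copies or of overlapping genes (Hsp90b1, Manf, Ddit3, Derl2, Syvn1, Pdia6, Pdia3, Pdia4 and Ppp1r15a share 0.409% to 10.3% of their exon bases with any 1 neighbour) are uncertain.

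All 12 columns were used, and groups were taken from the labels. Genes were kept by filterByExpr (minimum count 10, minimum total 15) in edgeR 4.0.16 (R 4.3.3), scaled by TMM, and tested with a quasi-likelihood fit of 4 group means over all 12 libraries, with Benjamini-Hochberg adjustment over 15961 genes. The contrasts taken from that fit were Tg7 minus Wt at each age, the difference of both, and 12w minus 2w in each genotype. The code was tested on simulated data. Total counts per library of 11610697 to 17515758 and a common biological coefficient of variation of 0.212 set the precision. Pairs of replicates all differed by more than counting noise (chi-square per degree of freedom of 7.08 to 169), so no library was counted as a repeat of another.

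Members and lists were chosen with earlier results of these data known. Values per library are given for 13 members listed by name, for the 3 largest called changes of each arm and for calls on the difference, and of each further list the 2 highest and 2 lowest called genes at each age are named. Chac1, P4hb and Pdia3 were added after their values were seen, as were Nucb2 and the 2 libraries left out together. Alternatives were DESeq2 1.42.0, other scaling factors, other filters, a test against a 1.2-fold change, only the groups compared, removal of the 20 most abundant genes, a replicate block, and each library left out. Near-identical copies were found with minimap2 2.31-r1302, and figures were drawn with matplotlib 3.10.9.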

Additional observations from a re-analysis of the deposited data

Results flagged for a closer look

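Among the 37 members and the genes of the 4 lists of other ER folding, ERAD, sensor and ATF4 or CHOP target genes, the Tg7 effect differed between the ages in 3 genes by a test of the difference itself (edgeR quasi-likelihood test over all genes, effect at 12w minus effect at 2w on the log2 scale). Over all 15961 tested genes 188 were called for this difference. Groups of 3 libraries are too small for a test of single outlying libraries.

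For the member Creld2, the ER protein induced by misfolded cargo, the difference was 1.57 ± 0.23 (adjusted p = 0.00363), from −1.73 at 2w to −0.16 at 12w. All Tg7 libraries lay below all Wt libraries at 2w, and the groups overlapped at 12w. Over the alternatives its adjusted p ran from 7.83e-08 to 0.0434.

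For Nucb2, which encodes the calcium-binding protein nucleobindin 2 and stands on the list of other ER folding genes, the difference was 1.38 ± 0.24 (adjusted p = 0.0143), from −0.20 at 2w to 1.18 at 12w. Its level was 141, 169.7 and 164 CPM in 2w Wt, 143, 135 and 137 CPM in 2w Tg7, 201, 312 and 364 CPM in 12w Wt and 669.7, 642 and 677 CPM in 12w Tg7 libraries. The call was lost without Wt replicate 2 of 2w (adjusted p = 0.0507).

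For Nupr1, a target of ATF4, the difference was −4.10 ± 0.72 (adjusted p = 0.0142), from 0.90 at 2w to −3.20 at 12w. The call was lost without Tg7 replicate 1 or 2 of 12w (adjusted p = 0.0502 and 0.0511) and with the replicate block (0.0547), and the difference was −5.43 without Wt replicate 1 of 2w.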

How the results depend on the processing

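Counts of called members moved by over 1.5 times in these cases. With library size alone, 15 members were called at 2w (24 with TMM), 7 at 12w (16), 6 for the difference (1) and 4 with age in Wt (12). Over all genes 1987, 5558, 347 and 4120 were then called, in that order, against 1695, 3772, 188 and 2524 in the main fit. Under that scaling 84.0% of all called genes at 2w and 93.5% at 12w were higher, against 57.2% and 52.7% with TMM. At 12w the replicate block left 8 and the test against a 1.2-fold change 9 members. Over all genes 2211 and 2472 were then called at 12w, against 3772 in the main fit. For the difference DESeq2 called 9, upper-quartile factors 3, no filter 4, a stricter filter 2, and leaving out both Wt libraries highest in Trib3 and Chac1 9. Over all genes these 5 settings called 566, 224, 420, 210 and 535 for the difference, against 188 in the main fit. Leaving out single libraries gave 18 to 27 calls at 2w, 9 to 21 at 12w, 1 to 7 for the difference, 10 to 15 with age in Wt and 17 to 22 in Tg7. Over all genes these fits gave 754 to 3071, 2417 to 4036, 82 to 579, 1336 to 4020 and 1115 to 3329 calls, in the same order. The block called 23 members at 2w and 1 for the difference. Deviations of same-numbered libraries from their group means correlated at −0.0214, −0.167 and −0.0343 at 2w and −0.0894 and −0.0112 at 12w. No positive correlation was thus seen. Whether the numbers mark paired pools cannot be told from so few libraries.

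Of 814 member values at 2w under alternatives 16 changed sign, and of 814 at 12w 26, none of them called except Chac1 where its adjusted p is given. Leaving out single libraries at 2w gave −0.12 to 0.45 for Herpud1, −0.61 to 0.026 for Atf4, −1.18 to 1.47 for Trib3, −0.97 to 2.30 for Chac1, −0.58 to 0.62 for Asns and −0.79 to 0.32 for the median of the PERK-ATF4 genes. Each of the latter 5 ranges had its highest value without Wt replicate 1 of 2w. Leaving out both Wt libraries gave 0.027 for Atf4, 1.47 for Trib3, 2.30 for Chac1 (adjusted p = 0.0459), 0.62 for Asns and 0.32 for the median, and the block gave 0.29 for Trib3 and 0.997 for Chac1. Library size turned Ppp1r15a to 0.027 at both ages, and at 12w Hsp90b1 to 0.030, Canx to 0.16, Pdia4 to 0.0998, Pdia6 to 0.32, Creld2 to 0.28, Herpud1 to 0.23 and Syvn1 to 0.24. At 12w the block gave 0.013 for Pdia6, 0.17 for Herpud1 and −0.052 for Edem2. Leaving out single libraries at 12w gave −0.38 to 0.22 for Herpud1, −0.11 to 0.23 for Dnajc3 and −0.073 to 0.084 for Edem2, and leaving out both Wt libraries 0.22 for Herpud1 and −0.074 for Edem2. With the compared groups alone Dnajc3 was −0.019 and Edem2 −0.026, without the 20 most abundant genes −0.0033 and −0.0053, and with DESeq2 Edem2 was −0.0018. The causes were not tested. Member counts were above 0 in every library. The lowest were 54 for Derl3 in Tg7 replicate 3 of 2w and 55 for Chac1 in Wt replicate 2 of 2w. The number of libraries and their spread set the precision, with counting noise added where counts were this low.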
